A study of Mus musculus with 24 samples.

Results

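The forskolin response of NFIA-expressing C2C12 cells at day 7 was set against that of ctrl C2C12 cells, gene by gene, as an interaction. The interaction of a gene is its forskolin response in NFIA cells minus its forskolin response in ctrl cells. It was taken from 12 of the 24 libraries of the series, 3 in each of 4 groups, which were chosen by their labels alone and by no measured value. C2C12 is an established line of mouse myoblasts that forms muscle fibres in culture. NFIA is nuclear factor I A, a DNA-binding transcription factor. The groups were ctrl cells at day 7, ctrl cells at day 7 with 10 uM forskolin for 4 h, NFIA-expressing cells at day 7, and NFIA-expressing cells at day 7 with the same forskolin treatment. The labels give no genotype for any of them, and do not say what the ctrl cells carry, how NFIA was introduced, which promoter drives it, whether a line is 1 clone or what the day 7 medium held. The other 12 libraries, of day 0 cells and of brown adipose tissue, entered no comparison here.

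Forskolin switches on adenylyl cyclase, the enzyme that makes cyclic AMP (cAMP) and that is normally driven by hormone receptors through the stimulatory G protein. Cyclic AMP frees the catalytic subunits of protein kinase A (PKA), which phosphorylate CREB and related factors bound to the cAMP response element, a short palindrome in the promoters of their target genes. In brown fat this pathway carries the signal of noradrenaline: it starts lipolysis and raises thermogenic genes such as Ucp1 and Ppargc1a. In muscle it serves adrenaline and other hormones, with Nr4a nuclear receptors among its early targets.

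Values are FPKM, fragment counts divided by the length of the transcript and by the size of the library, listed to 0.01. Sums of FPKM ran from 834959 to 1575522 per library and genes above 0 from 17304 to 19935. The microRNA entry Mir703 held a large and uneven part of these sums. It took 393312 of 1198538 FPKM in untreated NFIA replicate 1 and 29085 of 941965 in forskolin-treated NFIA replicate 1. Its effect on the scaling of other genes was not tested. The tables hold no library totals, so the depth and the counting error behind each value are unknown. A gene was tested where at least 3 of the 12 libraries had at least 1 FPKM, which held for 14034 of 37041 genes. Responses and interactions are differences of log2(FPKM + 1) with their standard error from limma, which understate changes of genes near or under 1 FPKM. A gene was called at a Benjamini-Hochberg adjusted p under 0.05. Genes that reached 1 FPKM in 1 group alone were tested only because that group was high: 46 did so in forskolin-treated NFIA libraries (42 of them called positive), 36 in untreated NFIA libraries (28 negative), 19 in untreated ctrl libraries (9 positive) and 9 in treated ctrl libraries (7 negative). Their calls are no support for a list, and the list members among the called ones that are counted below are named there. Il11 is not in these counts, since treated ctrl libraries reached 1 FPKM too. It still passed the filter only through the treated NFIA libraries. Gene lists were chosen with earlier results of these data known. Their counts are set beside the shares of all genes as descriptions, not as independent support. Nothing in the labels says that the 3 libraries of a group came from separate cultures, so the p-values measure only the spread between these libraries. Per-library values are given in the order of replicates 1, 2 and 3. Replicate 1 of each group carries an earlier date in the column headers than replicates 2 and 3, in all 4 groups alike.

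The cells of both kinds are labelled as myoblasts, and their markers set them apart. Summed FPKM of 10 myoblast and myotube markers ran from 26260 to 27210 in untreated ctrl libraries and from 2908 to 4140 in untreated NFIA libraries. With forskolin the same sum ran from 14510, in ctrl replicate 1, to 30440 in ctrl libraries and from 2082 to 4119 in NFIA libraries. Summed FPKM of 7 adipocyte markers ran from 5.56 to 10.7 in untreated ctrl libraries and from 22330 to 24500 in untreated NFIA libraries. With forskolin it ran from 5.90 to 9.07 and from 20070 to 23290. Among 8 immune cell markers 7 did not reach the level for testing, and Ptprc (CD45) was listed at 0.01 FPKM or less in every library. The other, the lysosomal protein Cd68, ran from 1.22 to 2.22 FPKM in ctrl libraries. In NFIA libraries Cd68 ran from 11.1 to 14.0 untreated and from 17.8 to 24.3 treated. It had no interaction call (0.55 ± 0.23; adjusted p = 0.13) except with the header date or the replicate number as a term. The endothelial markers Pecam1 and Cdh5 did not exceed 0.20 and 0.07 FPKM. Kdr, a VEGF receptor and also an endothelial marker, stayed under the level for testing but was higher with forskolin: 0.09, 0.07 and 0.08 against 0.58, 0.35 and 0.54 FPKM in ctrl cells and 0.04, 0.08 and 0.09 against 1.15, 1.39 and 0.94 in NFIA cells. Its part in the results was not tested. By these lists adipocyte markers were high in NFIA libraries alone, and muscle markers were present in all libraries and lower in those of NFIA cells. In bulk RNA, a change in the number of cells of a type and a change in RNA per cell cannot be told apart, which holds for every value below.

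Forskolin changed many more genes in NFIA cells than in ctrl cells, and the interaction was called for 2793 of 14034 genes, a background of 19.9%. A positive interaction, meaning a higher response in NFIA cells, was called for 1478 genes (10.5%) and a negative one for 1315 (9.37%), against 4467 of either sign at an unadjusted p under 0.05. Of the called genes, 657 (4.68% of those tested) had an absolute interaction of at least 1, and of these 483 were positive and 174 negative. In NFIA cells, 4687 genes (33.4%) were called for a forskolin response, 2297 higher (16.4%) and 2390 lower (17%). In ctrl cells it was 470 (3.35%), 223 higher (1.59%) and 247 lower (1.76%). The middle 90% of responses lay between -0.70 and 0.87 in NFIA cells and between -0.35 and 0.33 in ctrl cells, with medians of -0.02 and -0.01. The median interaction over all genes was -0.01.

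The count in ctrl cells depended on single libraries. It was 309, 256 and 294 without untreated ctrl replicates 1, 2 and 3, and 266 and 301 without forskolin ctrl replicates 2 and 3. Replicates 2 and 3 alone, which share the later header date, gave 4017 interaction calls, 6181 in the NFIA response and 438 in the ctrl response. The earlier date holds 1 library a group and gives no value of its own. With the date as a term the counts were 5451, 7212 and 1337. In a principal component plot of the 12 libraries, PC1 (72% of the variance) separated NFIA from ctrl libraries and PC2 (8.7%) separated forskolin from untreated NFIA libraries, at 27.5 to 34.4 against -37.1 to -33.9. Ctrl libraries with and without forskolin overlapped on PC2, between -2.09 and 7.91.

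**Figure D1:**
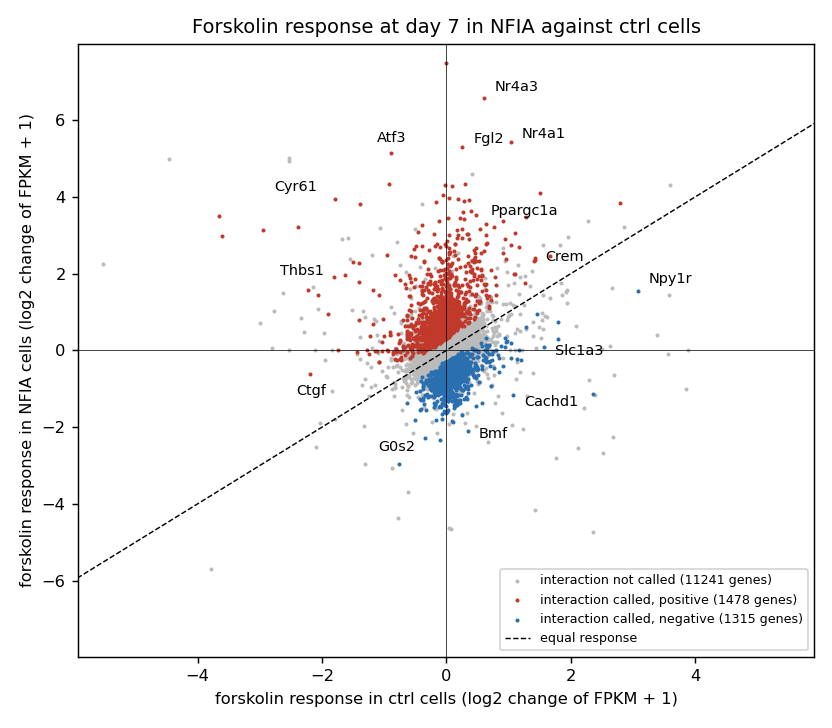
Forskolin response in ctrl cells (horizontal, log2 change of FPKM + 1) and in NFIA cells (vertical, same scale, 3 libraries a group) for 14034 genes. Colours mark the 1478 positive and 1315 negative interaction calls, the dashed line equal responses; most called genes lie along the vertical axis, where ctrl cells changed little.

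Most called genes moved in NFIA cells with no call in ctrl cells. Of the 2793, 1200 rose in NFIA cells with no call in ctrl cells (median response 0.71 against -0.04), and 1171 fell in NFIA cells with no call in ctrl cells (median -0.61 against 0.06). A further 67 rose in both kinds of cell and more in NFIA cells, and 15 fell in both and more in NFIA cells. Opposite calls were held by 87 genes: 71 rose in NFIA cells and fell in ctrl cells, and 16 fell in NFIA cells and rose in ctrl cells. In 111 genes the response was called in ctrl cells alone, 68 lower there with a positive interaction and 43 higher there with a negative one. The remaining patterns held 132 genes with neither response called, 7 that rose in both and more in ctrl cells, and 3 that fell in both and more in ctrl cells.

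Genes called in ctrl cells did not all move the same way in NFIA cells. Of 223 genes that rose in ctrl cells, 146 (65.5%) rose in NFIA cells and 16 (7.17%) fell. Of 247 that fell in ctrl cells, 77 (31.2%) fell in NFIA cells and 71 (28.7%) rose. Across all genes the correlation of the 2 responses, which share no library, was 0.08, and over the 470 genes called in ctrl cells it was 0.30. These are descriptions across genes, which are not independent replicates. Among the 146 genes that rose in both, the interaction was positive in 67, negative in 7 and not called in 72. Counts that need a call in ctrl cells were smaller whenever 1 of the 6 ctrl libraries was left out: the 71 became 37 to 54, the 16 became 5 to 10, the 67 became 42 to 57, the 77 became 37 to 50 and the 146 became 95 to 123. With the header date as a term they were larger, 218, 108, 175, 281 and 363 in the same order. Replicates 2 and 3 alone gave 78 for the 71 and 16 for the 16.

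**Figure D2:**
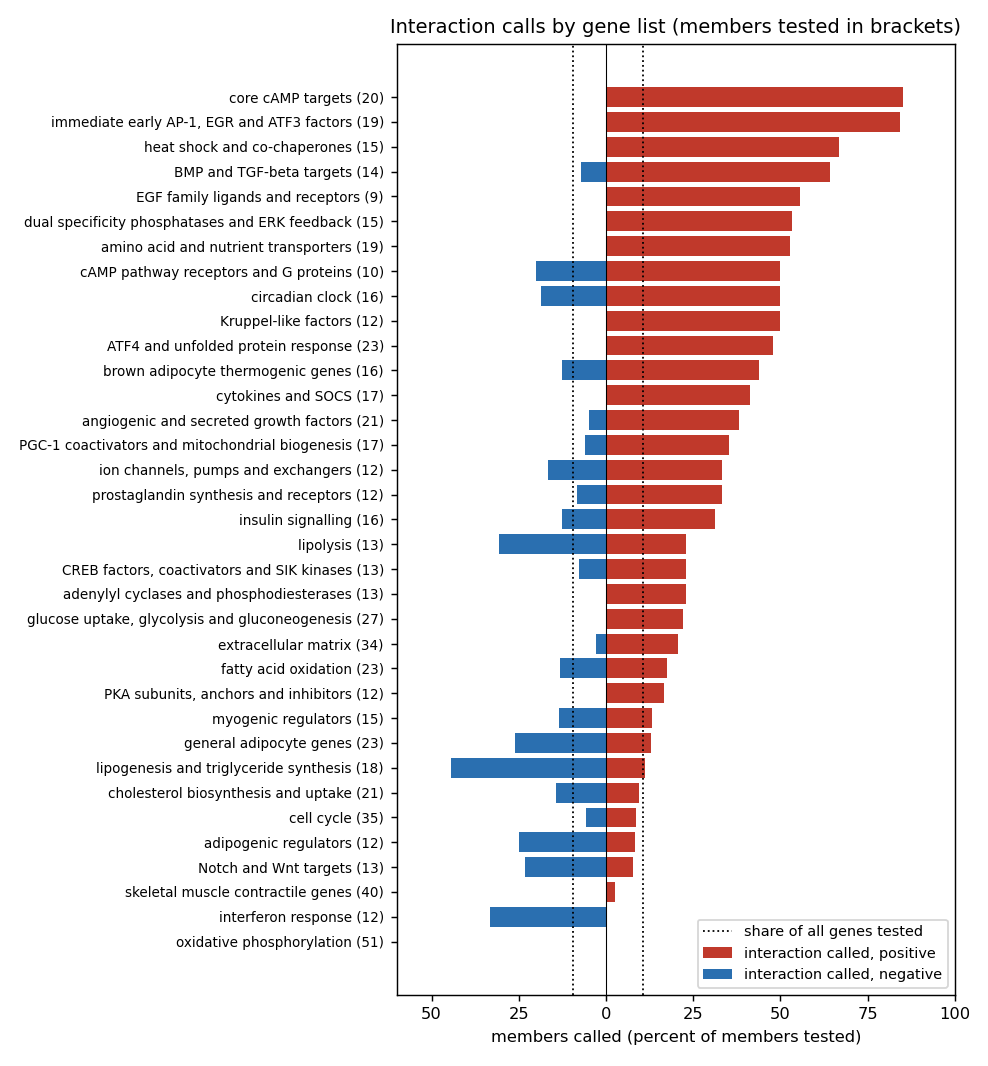
Share of tested members of each gene list (members tested in brackets) with a positive (right, red) or negative (left, blue) interaction call, in percent. Dotted lines mark the shares among all 14034 genes, 10.5% and 9.37%. Core cAMP targets (17 of 20 positive) and immediate early factors (16 of 19) stand at the top, and the 51 oxidative phosphorylation genes have no bar. The lists were chosen with earlier results of these data known, so their order is a description and not independent support.

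Nfia itself (ENSMUSG00000028565.11, mm9 chromosome 4, 97234824 to 97868605) was high in all NFIA libraries and at 2.23 FPKM or less in all ctrl libraries. It read 2.23, 0.81 and 0.94 FPKM in untreated ctrl cells and 1.82, 1.58 and 1.32 with forskolin. In NFIA cells it read 3585, 3256 and 3189 FPKM untreated and 9876, 10448 and 9232 with forskolin, a 2.95-fold rise of the mean (response 1.56 ± 0.19; adjusted p = 1.2e-04). The 3 forskolin libraries of NFIA cells all lay above the 3 untreated ones. The interaction (1.37 ± 0.26; adjusted p = 0.0046) lost its call at a pseudocount of 0.1 and under quantile normalization, where it was 1.21 and 0.9997. FPKM per gene does not separate an introduced Nfia from the cells' own copy. Nfia therefore moved with every result below in NFIA cells, and its part in them was not tested. Of the other family members, Nfix and Nfic had negative interactions. Nfix fell from 52.1, 51.4 and 44.4 FPKM to 28.1, 24.6 and 24.6 in NFIA cells, while ctrl cells read 48.8, 45.1 and 41.2 and 46.8, 38.8 and 46.1 (interaction -0.87 ± 0.15; adjusted p = 0.002). Nfic fell in NFIA cells too (-0.86 ± 0.10; interaction -0.66 ± 0.14, adjusted p = 0.007).

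Parts of the cAMP pathway itself moved with forskolin. Of 10 tested receptors and G proteins, 5 had a positive and 2 a negative interaction, against a background of 10.5% and 9.37%. The 5 became 3 without untreated ctrl replicate 2 or 3. The 2, Mc2r and Tshr, became 0 under quantile normalization. Gnai3, the alpha subunit of an inhibitory G protein, had an interaction of 1.02 ± 0.11 (adjusted p = 1.5e-04), with 72.8 to 78.8 FPKM in forskolin-treated NFIA libraries and 35.6 to 52.1 in the other groups. Ptger4, a prostaglandin E2 receptor that couples to cAMP, fell in ctrl cells (-0.56 ± 0.08) and read 0.89, 0.89 and 1.05 against 1.06, 0.9 and 1.11 FPKM in NFIA cells. The fat beta receptor Adrb3 was not tested: it was listed at 0.31 to 0.42 FPKM in untreated and at 0.13 to 0.20 in forskolin-treated NFIA libraries, and at 0.02 or less in ctrl libraries.

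The phosphodiesterases Pde4b and Pde3b, which break cAMP down, rose with forskolin in both kinds of cell. Pde4b read 10.5, 9.97 and 10.5 FPKM in untreated and 29.9, 28.4 and 30.4 in treated ctrl cells, and 19.6, 18.1 and 18.6 in untreated and 108, 100.1 and 104 in treated NFIA cells. Treated and untreated libraries did not overlap in either kind of cell, which held for 42.7% of all tested genes in NFIA cells and 18.7% in ctrl cells, and the rise in NFIA cells was larger by 0.98 ± 0.09 (adjusted p = 3.2e-05). For called genes the naming rule asked for this in at least 1 kind of cell. Pde10a, which breaks down both cAMP and cGMP, rose in NFIA cells alone, from 1.25, 1.46 and 1.44 to 7.56, 8.27 and 7.39 FPKM (interaction 1.81 ± 0.11; adjusted p = 2.5e-06). Pde3b, the insulin-activated phosphodiesterase of fat cells, rose in both, by 1.24 ± 0.16 in NFIA cells and 1.02 ± 0.16 in ctrl cells, without an interaction call except in replicates 2 and 3 alone. In all, 3 of 13 adenylyl cyclases and phosphodiesterases had a positive interaction and 0 a negative one, 23.1% called against 19.9% of all genes. The tested cyclase with the highest mean, Adcy7, had no interaction call (-0.19 ± 0.10; adjusted p = 0.22).

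PKA subunits and anchors had 2 positive calls in 12 tested genes and 0 negative, 16.7% called against 19.9% of all genes. The largest was Akap13, an anchoring protein of PKA, which rose from 19.2, 14.4 and 16.2 to 43.6, 32.6 and 33.01 FPKM in NFIA cells (interaction 1.18 ± 0.26; adjusted p = 0.0094). Of 13 CREB factors, coactivators and SIK kinases, 3 were positive and 1 negative (30.8% called). Sik1, a kinase that restrains the CREB coactivators and is itself a CREB target, read 13.2, 12.7 and 11.98 FPKM in untreated and 26.3, 26.1 and 28.4 in treated ctrl cells. In NFIA cells it went from 7.02, 7.16 and 8.41 to 49.3, 61.5 and 56.9 FPKM (interaction 1.70 ± 0.13; adjusted p = 1.4e-05). Crem, whose inducible short form represses cAMP response elements, rose in both kinds of cell. It went from 7.73, 7.91 and 10.1 to 23.4, 26.6 and 23.2 FPKM in ctrl cells and from 11.96, 12.6 and 11.3 to 56.01, 65.7 and 72.02 in NFIA cells (interaction 0.92 ± 0.17; adjusted p = 0.003). Treated and untreated libraries of Sik1 and Crem did not overlap in either kind of cell. Atf1, a CREB relative, had neither a response nor an interaction call (-0.03 ± 0.29; adjusted p = 0.96).

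Promoters of 8 genes with a large positive interaction are printed because they hold the letters that CREB and its relatives recognise. They were chosen after their values were seen. Each is the 250 bases before the gene's start, 5′ to 3′ on the gene's strand, from RefSeq on GRCm38.p6, a later build than the mm9 of the expression tables. Capitals mark the full palindrome TGACGTCA and its shorter form TGACG on either strand (CGTCA is TGACG on the other strand; the full form contains both). The full palindrome stands in Dio2, Areg and Dusp1, and only the shorter form in the other 5. Dio2 lies at chr12:90739039-90739288, minus strand, Areg at chr5:91139349-91139598, plus strand, and Dusp1 at chr17:26508473-26508722, minus strand. Nr4a1 lies at chr15:101266596-101266845, plus strand, Nr4a3 at chr4:48045055-48045304, plus strand, and Fos at chr12:85473640-85473889, plus strand. Ppargc1a lies at chr5:51567726-51567975, minus strand, and Pck1 at chr2:173152823-173153072, plus strand.
Dio2: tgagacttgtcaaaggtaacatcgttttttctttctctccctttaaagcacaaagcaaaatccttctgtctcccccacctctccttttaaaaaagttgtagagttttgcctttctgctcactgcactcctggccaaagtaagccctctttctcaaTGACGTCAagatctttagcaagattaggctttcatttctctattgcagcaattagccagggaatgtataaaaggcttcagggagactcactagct
Areg: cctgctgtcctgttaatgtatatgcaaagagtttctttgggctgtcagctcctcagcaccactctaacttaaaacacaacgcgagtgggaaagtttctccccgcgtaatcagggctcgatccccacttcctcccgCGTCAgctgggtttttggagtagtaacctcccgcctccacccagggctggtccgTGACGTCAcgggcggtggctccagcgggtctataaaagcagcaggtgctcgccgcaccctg
Dusp1: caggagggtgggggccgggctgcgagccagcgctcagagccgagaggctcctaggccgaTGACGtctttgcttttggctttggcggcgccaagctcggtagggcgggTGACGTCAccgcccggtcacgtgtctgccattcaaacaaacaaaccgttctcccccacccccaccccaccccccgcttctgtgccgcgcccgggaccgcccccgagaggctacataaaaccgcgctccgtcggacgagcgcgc
Nr4a1: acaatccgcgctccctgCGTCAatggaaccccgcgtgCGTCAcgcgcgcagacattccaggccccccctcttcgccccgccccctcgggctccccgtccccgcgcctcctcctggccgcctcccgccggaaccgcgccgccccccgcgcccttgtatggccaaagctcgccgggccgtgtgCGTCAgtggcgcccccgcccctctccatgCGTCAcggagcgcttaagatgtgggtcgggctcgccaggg
Nr4a3: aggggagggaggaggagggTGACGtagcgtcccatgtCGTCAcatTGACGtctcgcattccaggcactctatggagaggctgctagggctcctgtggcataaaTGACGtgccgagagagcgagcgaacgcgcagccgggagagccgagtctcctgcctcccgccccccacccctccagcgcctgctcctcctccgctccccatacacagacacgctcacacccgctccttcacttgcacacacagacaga
Fos: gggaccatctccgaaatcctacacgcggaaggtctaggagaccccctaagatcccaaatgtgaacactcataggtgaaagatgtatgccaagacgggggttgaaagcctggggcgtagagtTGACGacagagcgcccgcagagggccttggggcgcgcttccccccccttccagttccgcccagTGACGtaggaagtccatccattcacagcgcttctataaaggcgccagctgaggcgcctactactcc
Ppargc1a: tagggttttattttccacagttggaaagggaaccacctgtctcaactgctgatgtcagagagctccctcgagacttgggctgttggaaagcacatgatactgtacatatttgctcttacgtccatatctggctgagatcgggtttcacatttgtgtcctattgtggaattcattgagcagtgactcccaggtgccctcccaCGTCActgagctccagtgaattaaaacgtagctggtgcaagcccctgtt
Pck1: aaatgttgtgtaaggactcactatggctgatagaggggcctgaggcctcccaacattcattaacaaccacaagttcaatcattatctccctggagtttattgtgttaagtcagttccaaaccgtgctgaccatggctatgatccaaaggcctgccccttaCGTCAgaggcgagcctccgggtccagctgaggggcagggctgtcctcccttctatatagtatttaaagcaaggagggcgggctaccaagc

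The full palindrome begins 95 bases before the start in Dio2, 61 in Areg and 143 in Dusp1. Nr4a1 and Nr4a3 each hold 4 copies of the shorter form, the nearest to the start at 40 bases in Nr4a1 and at 147 in Nr4a3. Fos holds 2, at 129 and 66 bases, Ppargc1a 1 at 49 and Pck1 1 at 90. Of all 32851 promoters in the RefSeq table, 1.55% hold TGACGTCA and 17.8% hold TGACG on either strand in these 250 bases. Promoters were found for 8649 of the 14034 tested genes. TGACGTCA stood in 3.69% of promoters of genes with a positive interaction, 1.89% with a negative one and 2.53% with no call. Within the positive genes, it stood in 4.42% of 1017 promoters of genes that rose in NFIA cells only, in 1 of 55 (1.82%) where both kinds of cell rose, and in 0 of 67 where ctrl cells fell. For TGACG the shares were 32.8% in positive, 23.9% in negative and 25.9% in uncalled genes. These shares are descriptions without a test, and a match shows only that the letters are there.

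Immediate early genes, which respond to many signals before any new protein is made, rose with forskolin in NFIA cells and mostly not in ctrl cells. Of 19 tested AP-1, EGR and ATF3 factors, 16 had a positive interaction and 0 a negative one, against 10.5% and 9.37% of all genes. The median was 2.20, against -0.01 over all genes. Among the 16 is Fosb, which reached 1 FPKM in forskolin-treated NFIA libraries alone and also counts among the core cAMP targets below. In NFIA cells 16 rose and 0 fell, against 16.4% and 17% of all genes, and in ctrl cells 2 rose and 4 fell, against 1.59% and 1.76%. Atf3 (ENSMUSG00000026628.8, mm9 chromosome 1, 192994175 to 193007219), a stress-induced repressor of the ATF/CREB family, read 3.69, 3.04 and 3.96 FPKM in untreated ctrl cells and 1.81, 1.32 and 1.29 with forskolin. In NFIA cells it went from 21.2, 19.1 and 17.6 to 674, 711 and 785 FPKM. Its levels fell in ctrl cells (-0.88 ± 0.11; adjusted p = 0.0022) and rose in NFIA cells (5.16 ± 0.11), so that the interaction reached 6.04 ± 0.16 (adjusted p = 9.4e-09). Egr1, a zinc finger factor, did the same: 28.1, 30.4 and 27.7 against 9.03, 9.63 and 9.89 FPKM in ctrl cells and 17.1, 19.1 and 19.03 against 85.97, 96.95 and 101 in NFIA cells (interaction 3.80 ± 0.11; adjusted p = 2.4e-08). No library of a treated group lay within the range of its untreated group for either gene.

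Fos (ENSMUSG00000021250.7, mm9 chromosome 12, 86814840 to 86818223), the AP-1 subunit whose promoter is shown above, read 1.43, 1.72 and 1.81 FPKM in untreated and 2.17, 3.3 and 2.15 in treated ctrl cells, a difference that was not called (adjusted p = 0.32). In NFIA cells it went from 1.75, 2.68 and 2.34 to 32.4, 45.8 and 40.4 FPKM (interaction 3.23 ± 0.23; adjusted p = 7.7e-06). Jun, its main partner, rose from 44.5, 63.7 and 60.4 to 243, 395 and 393 FPKM in NFIA cells, with ctrl libraries between 27.7 and 41.2 whether treated or not (interaction 2.51 ± 0.31; adjusted p = 3.3e-04). The small Maf protein Maff and the AP-1 subunit Junb had interactions of 2.83 ± 0.20 and 2.81 ± 0.46 (adjusted p = 7.1e-06 and 0.0018). Fosl1 (Fra-1) rose in both kinds of cell, by 0.91 ± 0.10 in ctrl and 3.37 ± 0.10 in NFIA cells (interaction 2.46 ± 0.14; adjusted p = 1.6e-06). Jund, the AP-1 subunit that is present without stimulation, varied widely between replicates, from 24.03 to 68.19 FPKM in treated ctrl cells. It had no call (0.53 ± 0.73; adjusted p = 0.7) except with the header date or the replicate number as a term.

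The 3 NR4A orphan receptors, nuclear receptors that are controlled by their own level, rose in both kinds of cell and much more in NFIA cells. Nr4a1 (ENSMUSG00000023034.6, mm9 chromosome 15, 101097277 to 101105223) went from 6.29, 7.03 and 6.89 to 12.03, 15.4 and 17.6 FPKM in ctrl cells and from 6.58, 10.02 and 9.27 to 346, 433 and 458 in NFIA cells. The means rose 2.23-fold and 47.8-fold (interaction 4.40 ± 0.24; adjusted p = 1.2e-06). Nr4a3 (ENSMUSG00000028341.3, mm9 chromosome 4, 48058025 to 48099319) went from 0.34, 0.31 and 0.24 to 1.1, 0.82 and 1.02 FPKM in ctrl cells and from 1.22, 1.24 and 0.85 to 218, 177 and 204 in NFIA cells. Its means rose 3.3-fold and 181-fold, and its interaction on the log2(FPKM + 1) scale was 5.97 ± 0.15 (adjusted p = 8.7e-09). Nr4a2 rose from 2.29, 2.38 and 2.69 to 8.98, 7.37 and 10.1 and from 1.1, 1.44 and 1.37 to 43, 30.2 and 44.1 FPKM (interaction 2.61 ± 0.21; adjusted p = 1.8e-05). All treated libraries of the 3 genes lay above all untreated ones of the same cells, and the untreated levels of Nr4a1 overlapped between ctrl and NFIA cells.

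A list of 20 tested core cAMP targets shares members with the lists above. Of these 20, 17 had a positive interaction and 0 a negative one (median 1.72), against 10.5% and 9.37% of all genes. In NFIA cells 18 rose and 1 fell, against 16.4% and 17% of all genes. In ctrl cells 10 rose and 1 fell, against 1.59% and 1.76%. Ppargc1a (ENSMUSG00000029167.7, mm9 chromosome 5, 51845488 to 51958964), a coactivator of nuclear receptors that drives mitochondrial and thermogenic genes, read 0.64, 0.49 and 0.79 FPKM in untreated and 1.29, 1.29 and 1.27 in treated ctrl cells. It went from 5.27, 5.07 and 4.34 to 70.3, 65.1 and 66.8 FPKM in NFIA cells (interaction 3.06 ± 0.12; adjusted p = 1.9e-07). On the FPKM scale the means rose 2.01-fold and 13.8-fold. Pck1, which makes glycerol phosphate for triglycerides in fat and glucose in liver, was listed at 0.03 FPKM or less in every ctrl library. In NFIA cells Pck1 rose from 31.3, 34.98 and 31.98 to 97.9, 116 and 121 FPKM (interaction 1.73 ± 0.12; adjusted p = 6.1e-06). Cited2, a CBP-binding regulator, was lower with forskolin on average in both kinds of cell without an interaction call (-0.06 ± 0.35; adjusted p = 0.94).

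**Figure D3:**
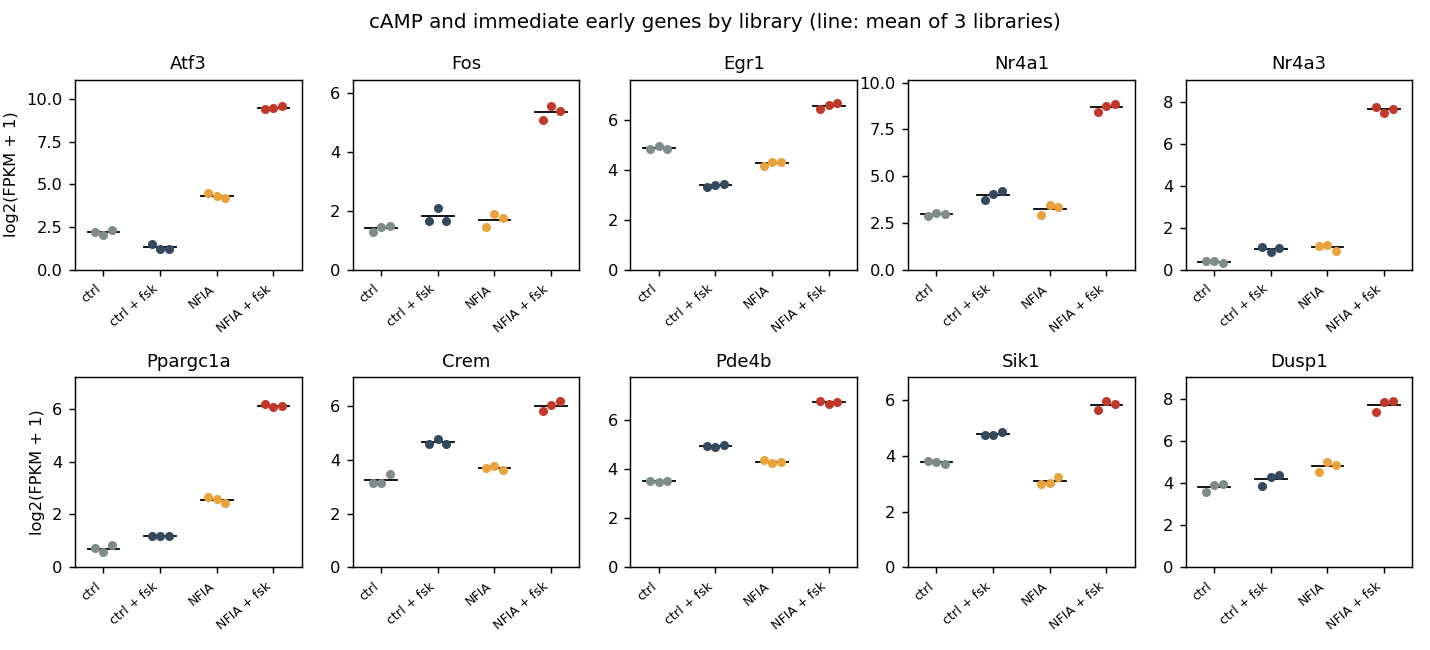
Levels of 10 cAMP and immediate early genes as log2(FPKM + 1) in the 12 day 7 libraries; dots are libraries and lines the means of 3. Crem, Pde4b, Sik1, Nr4a1 and Nr4a3 rose in ctrl cells too, while Atf3 and Egr1 fell there.

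Other signal-regulated factors were called in 1 direction. Of 12 tested Kruppel-like factors, 6 had a positive interaction and 0 a negative one, against 10.5% and 9.37% of all genes. The median was 0.51, and Klf4 had the largest interaction. Klf4, a zinc finger factor of many epithelia and stem cells, fell from 9.79, 10.4 and 11.5 to 3.8, 5.7 and 5.65 FPKM in ctrl cells and rose from 22.2, 31.9 and 27.4 to 124, 164 and 183 in NFIA cells (interaction 3.43 ± 0.26; adjusted p = 1.0e-05). Klf6, a relative, rose in NFIA cells (1.46 ± 0.09) and fell in ctrl cells (-0.38 ± 0.09; interaction adjusted p = 6.2e-06). Of 15 tested dual specificity phosphatases and other ERK feedback genes, 8 were positive and 0 negative (median 0.61), against the same shares of all genes. Dusp1, which removes phosphate from p38, JNK and ERK, read 10.9, 13.9 and 14.9 FPKM in untreated and 13.8, 18.6 and 19.8 in treated ctrl cells, and went from 22.3, 31.4 and 28.5 to 166, 237 and 240.0 in NFIA cells (interaction 2.55 ± 0.27; adjusted p = 1.1e-04). Dusp4 rose from 23.8, 27.6 and 24.6 to 194, 222 and 233 FPKM in NFIA cells, with ctrl libraries between 5.55 and 7.06 (interaction 3.24 ± 0.12; adjusted p = 9.8e-08). Dusp6, the ERK-specific member, fell in ctrl cells (-1.02 ± 0.14) and rose in NFIA cells (0.82 ± 0.14).

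Circadian clock genes moved in both directions. Of 16 tested, 8 had a positive and 3 a negative interaction (median 0.40), against 10.5% and 9.37% of all genes. Nfil3 (E4BP4), a repressor of D-box genes, read 13.02, 14.2 and 13.7 FPKM in untreated and 16.5, 18.4 and 20.4 in treated ctrl cells, and went from 67.9, 73.8 and 68.9 to 320.2, 382 and 375 in NFIA cells (interaction 1.93 ± 0.13; adjusted p = 6.3e-06). Per2, of the negative limb of the clock, rose in both, by 0.48 ± 0.07 in ctrl and 1.47 ± 0.07 in NFIA cells (interaction 0.99 ± 0.10; adjusted p = 7.3e-05). Arntl (Bmal1), of the positive limb, had an interaction of 0.96 ± 0.11 (adjusted p = 1.8e-04). The 3 negative calls were Bhlhe41, Tef and Per3. Tef, an activator of D-box genes, fell from 71.7, 95.8 and 77.01 to 32.9, 26.03 and 38.3 FPKM in NFIA cells and read 49.4, 58.1 and 68.9 and 49.8, 60.7 and 68.96 in ctrl cells (interaction -1.33 ± 0.26; adjusted p = 0.0044). Bhlhe41 (Dec2) had an interaction of -1.56 ± 0.22 and Per3 one of -0.89 ± 0.13 (adjusted p = 6.6e-04 and 9.8e-04). Bhlhe40 (Dec1), the close relative of Bhlhe41, went the other way (1.03 ± 0.12; adjusted p = 1.9e-04).

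Thermogenic genes of brown fat were split. Of 16 tested, 7 had a positive and 2 a negative interaction (median 0.29), against 10.5% and 9.37% of all genes. The 7 became 4 without forskolin NFIA replicate 1 or 2 and in replicates 2 and 3 alone, and the median was -0.08 without forskolin NFIA replicate 2, 0.03 without the filter on low values and 0.46 at a pseudocount of 0.1. Of the 7, Ucp1 and Irf4 were tested only through the forskolin-treated NFIA libraries, so their values are given without a test. They left the test wherever a forskolin-treated NFIA library was left out, including in replicates 2 and 3 alone. The 4 and the -0.08 are therefore over fewer tested genes. Ucp1 (ENSMUSG00000031710.3, mm9 chromosome 8, 85814247 to 85822355), the uncoupling protein that makes heat in brown fat, was listed at 0 in all 6 ctrl libraries. In NFIA cells it read 0.01, 0.05 and 0.13 FPKM untreated and 2.75, 3.95 and 3.06 with forskolin. All 3 treated NFIA libraries lay above the untreated ones, at levels far below those of the adipocyte markers. Dio2 (ENSMUSG00000007682.5, mm9 chromosome 12, 91962994 to 91989133), the deiodinase that activates thyroid hormone inside brown fat cells, had higher untreated levels in ctrl libraries than in NFIA libraries, without overlap. It read 13.99, 12.4 and 12.9 FPKM in untreated and 18.1, 15.6 and 16.8 in treated ctrl cells, and went from 2.78, 2.34 and 2.04 to 27.9, 25.04 and 27 in NFIA cells (interaction 2.69 ± 0.13; adjusted p = 7.4e-07).

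Fgf21, a secreted metabolic hormone of liver and fat, rose from 11.6, 18.9 and 19.9 to 65.05, 92.97 and 98.7 FPKM in NFIA cells and had no call in ctrl cells, at 53.3, 78.2 and 67.8 and 37.5, 54.4 and 64.3 (interaction 2.66 ± 0.37; adjusted p = 5.9e-04). Ppargc1b, a relative of Ppargc1a, rose from 3.42, 3.08 and 3.29 to 6.67, 6.43 and 6.88 FPKM in NFIA cells (interaction 1.09 ± 0.12; adjusted p = 1.1e-04). Irf4, a fasting-induced partner of Ppargc1a in brown fat, read 0.04 to 0.06 FPKM in untreated and 1.23, 1.41 and 1.14 in treated NFIA cells and did not exceed 0.05 in ctrl cells. Cidea, a lipid droplet protein of brown fat, read 45.02, 52.1 and 46.8 and 49.5, 62.6 and 56.8 FPKM in NFIA cells and had no call (0.26 ± 0.13; adjusted p = 0.2). Pank1, which starts coenzyme A synthesis, fell from 10.2, 8.37 and 8.93 to 5.01, 5.65 and 4.71 FPKM in NFIA cells (interaction -0.74 ± 0.13; adjusted p = 0.0027). Prdm16, a zinc finger regulator of brown fat, was listed at 0.03 FPKM or less in all 12 libraries and was not tested.

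General genes of fat cells had more negative than positive calls. A gene hardly detected in ctrl cells can hardly fall there, so its interaction is close to its NFIA response. Of all tested genes, 682 had means under 1 FPKM in both ctrl groups. Among these 682, 115 had a positive and 90 a negative call. Over all 14034 tested genes it was 1478 (10.5%) and 1315 (9.37%), a smaller share in both directions. Of 23 tested general adipocyte genes, 3 had a positive and 6 a negative interaction (median -0.39), and under quantile normalization 10 were negative. Aqp7, 1 of the 6, reached 1 FPKM in untreated NFIA libraries alone, and it counts under lipolysis too. Fabp4, the fatty acid carrier, read 22824, 23158 and 21182 FPKM in untreated and 19291, 22152 and 22339.5 in treated NFIA cells, with no call (0.05 ± 0.48; adjusted p = 0.97). Adipoq, which encodes adiponectin, fell from 238, 299 and 261 to 172, 203 and 201 FPKM in NFIA cells and did not exceed 0.14 in ctrl cells (interaction -0.58 ± 0.13; adjusted p = 0.011). Pparg, the master regulator of fat cells, rose from 51.99, 53.98 and 52.05 to 63.98, 67.02 and 65.4 FPKM in NFIA cells and fell from 2.05, 2.37 and 2.25 to 1.59, 1.43 and 1.54 in ctrl cells (interaction 0.66 ± 0.09; adjusted p = 4.7e-04). Of 12 tested adipogenic regulators, Pparg was the 1 positive call and 3 were negative (median -0.40). Stat5a, a cytokine-activated factor, fell from 39.4, 44.4 and 42.1 to 13.1, 12.7 and 13.9 FPKM in NFIA cells, close to its ctrl levels of 11.2 to 13.4 (interaction -1.58 ± 0.11; adjusted p = 6.9e-06). Rxra, the partner receptor of PPARgamma, fell from 55.6, 60.6 and 53.4 to 28.1, 27.3 and 28.9 FPKM (interaction -0.91 ± 0.10; adjusted p = 1.6e-04). Cebpa was lower with forskolin in NFIA cells (-0.94 ± 0.22) without an interaction call (-0.74 ± 0.31; adjusted p = 0.13). It was called under quantile normalization, in replicates 2 and 3 alone and with the header date or the replicate number as a term.

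Lipogenic genes also had more negative than positive calls. Of 18 tested lipogenesis and triglyceride genes, 2 had a positive and 8 a negative interaction, against 10.5% and 9.37% of all genes. The median was -0.37, and -0.61 under quantile normalization. The 8 became 5 without untreated ctrl replicate 2 or 3, forskolin ctrl replicate 2 or 3, or forskolin NFIA replicate 3. Srebf1, the factor that drives fatty acid synthesis, fell from 285, 318 and 305 to 101, 100.5 and 129 FPKM in NFIA cells and read 56.1, 47.7 and 46.7 and 40.4, 55.8 and 53.7 in ctrl cells (interaction -1.44 ± 0.20; adjusted p = 6.1e-04). Pnpla3, a lipid droplet hydrolase that Srebf1 drives, fell from 51.8, 62.3 and 56.8 to 16.4, 20.1 and 17.9 FPKM (interaction -1.61 ± 0.14; adjusted p = 3.1e-05). Fatty acid synthase (Fasn) fell from 879, 1079 and 918 to 493, 538 and 529 FPKM (interaction -0.89 ± 0.14; adjusted p = 0.0013). For the 3 genes treated and untreated NFIA libraries did not overlap, while those of ctrl cells did.

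The 2 acyltransferases that complete triglycerides went in opposite directions. Dgat1 (ENSMUSG00000022555.5, mm9 chromosome 15, 76332445 to 76342381) rose from 148, 183 and 171 to 815, 975 and 966 FPKM in NFIA cells and read 16.3, 19.4 and 23.01 and 23.7, 25.4 and 26.03 in ctrl cells (interaction 2.10 ± 0.18; adjusted p = 2.7e-05). Dgat2 fell from 649, 896 and 756 to 451, 586 and 561 FPKM in NFIA cells (interaction -0.95 ± 0.22; adjusted p = 0.013). Lpin1, a phosphatidate phosphatase that also acts as a coactivator, rose from 44.1, 43.6 and 39.8 to 184, 175 and 174 FPKM in NFIA cells and from 5, 4.8 and 4.5 to 6.58, 6.23 and 7.09 in ctrl cells (interaction 1.63 ± 0.10; adjusted p = 2.7e-06).

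Among 13 tested lipolysis genes, 3 had a positive and 4 a negative interaction, against 10.5% and 9.37% of all genes. The median was -0.25, but -0.08 and -0.14 without untreated NFIA replicates 2 and 3. The 4 became 2 at a pseudocount of 0.1 and without any 1 of 9 libraries. The exceptions were untreated NFIA replicate 1 and forskolin NFIA replicates 2 and 3. Aqp7 left the test wherever an untreated NFIA library was left out, so those counts and medians are over fewer tested genes. G0s2 (ENSMUSG00000009633.2, mm9 chromosome 1, 195098355 to 195099382), an inhibitor of the lipase ATGL, fell from 549, 963 and 802 to 108, 175 and 170.0 FPKM in NFIA cells, to a mean 0.196 times the untreated one. In ctrl cells it read 37.6, 54.9 and 57.7 and 32.4, 52.2 and 56.2 FPKM, ranges that overlapped (interaction -2.23 ± 0.40; adjusted p = 0.0032). ATGL itself (Pnpla2) read 692, 934 and 800.0 and 629, 748 and 749.7 FPKM in NFIA cells and had no call (-0.06 ± 0.24; adjusted p = 0.9). Hormone-sensitive lipase (Lipe) fell from 84.8, 118 and 98.9 to 53.8, 68.2 and 71.1 FPKM (interaction -0.91 ± 0.21; adjusted p = 0.012). Plin2, a lipid droplet coat protein, rose from 1610.2, 1744 and 1519 to 2985, 3888 and 3860.1 FPKM in NFIA cells, with ctrl libraries between 86.4 and 111 (interaction 1.25 ± 0.18; adjusted p = 8.3e-04).

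**Figure D4:**
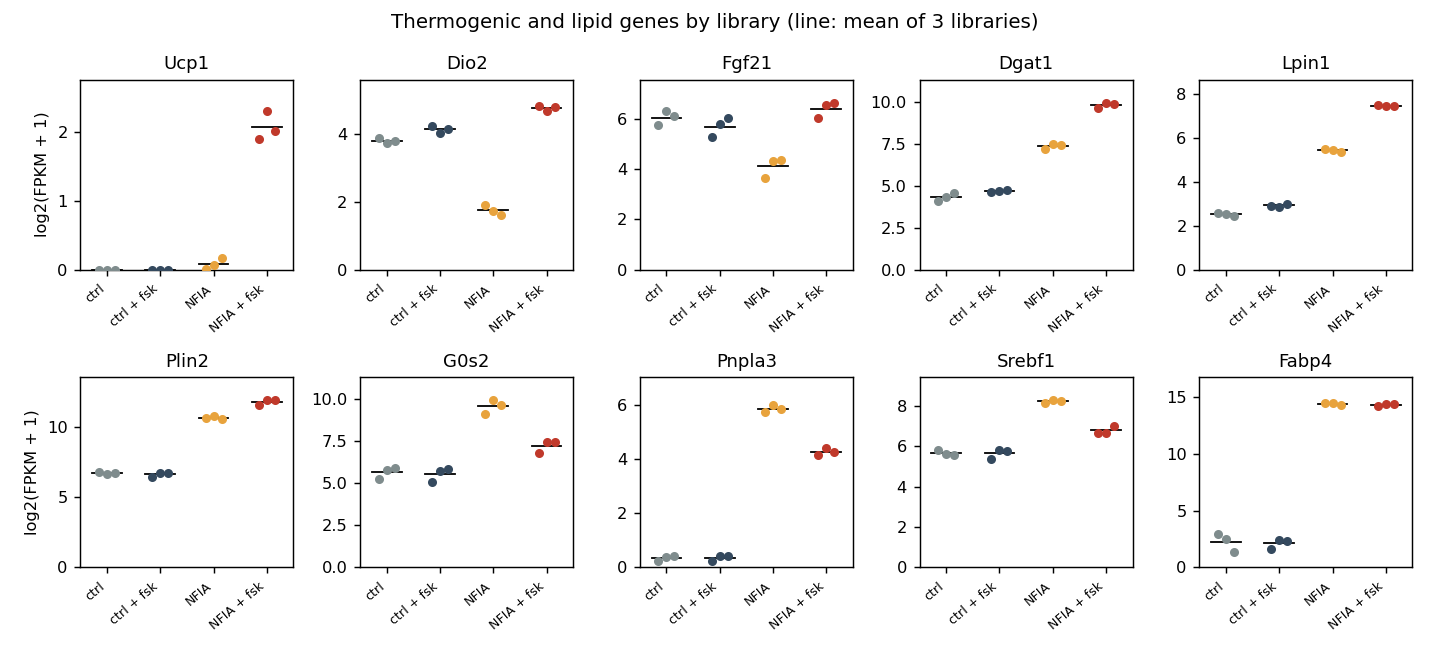
Levels of 10 thermogenic and lipid genes as log2(FPKM + 1) in the 12 day 7 libraries; dots are libraries and lines the means of 3. In NFIA cells Ucp1, Dio2, Fgf21, Dgat1, Lpin1 and Plin2 were higher with forskolin, G0s2, Pnpla3 and Srebf1 lower, and Fabp4 about level.

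Genes of mitochondrial and fuel metabolism were called singly. None of 51 tested oxidative phosphorylation genes had a call in the interaction, in the NFIA response or in the ctrl response by limma (median interaction 0.08). At an unadjusted p under 0.05 it was 0, 1 and 0. Quantile normalization turned the median to -0.24, with 3 negative interaction calls and 15 lower in NFIA cells, whereas replicates 2 and 3 alone gave 3 positive interaction calls and 10 higher and 1 lower in NFIA cells. Of 23 fatty acid oxidation genes, 4 were positive and 3 negative (30.4% called, against 19.9% of all genes), with 8 negative under quantile normalization. Pdk4, which shuts pyruvate out of oxidation, rose from 87.5, 85.4 and 77.8 to 219.9, 239 and 252 FPKM in NFIA cells, with ctrl libraries between 14.4 and 16.4 (interaction 1.42 ± 0.10; adjusted p = 9.4e-06). Ucp2, a mitochondrial carrier related to Ucp1, rose from 456, 495 and 432 to 968, 1275 and 1226 FPKM (interaction 1.22 ± 0.18; adjusted p = 8.0e-04). Acadm, the medium-chain dehydrogenase of fatty acid oxidation, rose in ctrl cells (0.37 ± 0.07) and fell in NFIA cells (-0.33 ± 0.07; interaction adjusted p = 4.7e-04). Ppara, a receptor that drives fatty acid oxidation, fell in NFIA cells from 1.97, 3.13 and 4.14 to 1, 1.48 and 1.11 FPKM (interaction -0.96 ± 0.24; adjusted p = 0.018).

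Of 27 genes of glucose uptake, glycolysis and gluconeogenesis, 6 were positive and 0 negative, 22.2% called against 19.9% of all genes. In replicates 2 and 3 alone 11 were positive. The glucose transporter Slc2a1 (GLUT1) rose from 32.5, 43.3 and 39.7 to 123, 161 and 166 FPKM in NFIA cells and read 54.1, 68.5 and 74.4 and 72.99, 97.2 and 98.03 in ctrl cells (interaction 1.49 ± 0.25; adjusted p = 0.0018). Hexokinase 2 (Hk2), which traps glucose in the cell, had an interaction of 1.21 ± 0.18 (adjusted p = 9.5e-04). Irs2, an adaptor of the insulin receptor and a known CREB target, rose from 7.98, 11.98 and 10.8 to 91.4, 133 and 133 FPKM in NFIA cells and did not exceed 2.57 in ctrl cells (interaction 3.13 ± 0.25; adjusted p = 1.7e-05). Over 16 insulin signalling genes 5 were positive and 2 negative (43.8% called). Of 21 cholesterol genes, 2 were positive and 3 negative (23.8% called, near the 19.9% of all genes). The 3 became 1 without any 1 of untreated ctrl replicates 2 and 3, untreated NFIA replicate 2, forskolin ctrl replicates 2 and 3 and forskolin NFIA replicate 3, became 6 in replicates 2 and 3 alone and 7 with the header date as a term. Pmvk, phosphomevalonate kinase, rose from 123, 174 and 158 to 665, 1088 and 1057 FPKM in NFIA cells and read 20.8, 27.7 and 28.4 and 22.6, 30.4 and 30.5 in ctrl cells (interaction 2.48 ± 0.31; adjusted p = 3.1e-04).

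Heat shock and endoplasmic reticulum stress genes had positive calls and no negative ones in the reported fit. Of 15 tested chaperones, 10 had a positive interaction and 0 a negative one (median 0.76), against 10.5% and 9.37% of all genes. Under quantile normalization 6 were positive, with a median of 0.49. Hspa1b, an inducible HSP70, rose from 9.49, 14.99 and 13.1 to 186, 304 and 316 FPKM in NFIA cells and read 6.06, 8.58 and 7.28 and 5.61, 7.59 and 8.3 in ctrl cells (interaction 4.33 ± 0.33; adjusted p = 1.1e-05). Its near-identical copy Hspa1a was below the level for testing, and how reads were divided between them is not known, so the value may hold both. The co-chaperone Dnajb1 rose from 22.4, 27.4 and 26.1 to 141, 182 and 181 FPKM, with ctrl libraries between 18.7 and 24.2 (interaction 2.63 ± 0.19; adjusted p = 8.2e-06). Hsph1 (HSP105) rose in both, by 0.60 ± 0.09 in ctrl and 2.59 ± 0.09 in NFIA cells (interaction 1.99 ± 0.12; adjusted p = 3.0e-06). Hsp90ab1, the constitutive HSP90, had no call in the reported fit (0.47 ± 0.34; adjusted p = 0.4). It was called in replicates 2 and 3 alone and with the header date or the replicate number as a term.

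Of 23 tested ATF4 and unfolded protein genes, 11 were positive and 0 negative (median 0.70), against 10.5% and 9.37% of all genes. In replicates 2 and 3 alone 18 were positive, and under quantile normalization 9 were positive and 1 was negative. Atf4, the factor of the integrated stress response, rose from 253, 336 and 326 to 734, 989.8 and 976 FPKM in NFIA cells and had no call in ctrl cells (interaction 1.96 ± 0.27; adjusted p = 5.6e-04). Hspa5 (BiP), the main chaperone of the endoplasmic reticulum, rose from 309, 282 and 290.1 to 818, 863 and 865 FPKM, with ctrl libraries between 259 and 322 (interaction 1.29 ± 0.11; adjusted p = 2.3e-05). Chac1, which degrades glutathione, fell from 11.4, 15.9 and 15.04 to 4.52, 5.79 and 6.57 FPKM in ctrl cells and rose from 14.3, 23.3 and 21 to 24.4, 35.2 and 36.2 in NFIA cells (interaction 1.88 ± 0.30; adjusted p = 0.0016). Trib3, a pseudokinase that ATF4 drives, fell in ctrl cells (-1.23 ± 0.22) and had no call in NFIA cells (0.37 ± 0.22; interaction adjusted p = 0.0051). Gadd45g, a stress-induced growth regulator, had an interaction of 3.53 ± 0.52 (adjusted p = 8.9e-04).

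Amino acid and nutrient transporters had 10 positive and 0 negative interactions in 19 tested genes (median 0.83), against 10.5% and 9.37% of all genes. Slc7a5 (LAT1), which carries large neutral amino acids, fell from 41.3, 43.5 and 38.5 to 27.2, 27.4 and 32.03 FPKM in ctrl cells and rose from 23.4, 28.3 and 27.2 to 133, 147 and 156 in NFIA cells (interaction 2.92 ± 0.14; adjusted p = 6.0e-07). Slc7a1 (CAT1), for cationic amino acids, and Slc20a1, a phosphate carrier, did the same, with interactions of 2.78 ± 0.11 and 3.22 ± 0.13 (adjusted p = 1.4e-07 and 1.9e-07). Slc16a1 (MCT1), which carries lactate and pyruvate, rose from 58.3, 44.9 and 47.5 to 416, 367 and 371 FPKM in NFIA cells (interaction 2.66 ± 0.16; adjusted p = 2.1e-06). Slc25a25, a calcium-regulated mitochondrial ATP-Mg carrier, rose in both kinds of cell, from 5.03, 7.9 and 7.34 to 10.6, 25.7 and 19.8 and from 20.5, 29.2 and 20.7 to 230.2, 243 and 348 FPKM (interaction 2.20 ± 0.42; adjusted p = 0.0042).

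Secreted growth factors of the EGF family, which act on receptor tyrosine kinases, were among the positive calls. Of 9 tested EGF family genes, 5 had a positive interaction and 0 a negative one, against 10.5% and 9.37% of all genes. The 5 were 4 ligands and the receptor inhibitor Errfi1 (Mig6). The median was 1.52, but 0.22 without the filter on low values and 0.96 with all 18 C2C12 libraries in the fit. Areg, amphiregulin, whose promoter is shown above, read 0.73, 1.35 and 0.74 FPKM in untreated and 0.28, 0.92 and 0.62 in treated ctrl cells, and went from 0.83, 1.74 and 1.57 to 9.62, 16.6 and 14.7 in NFIA cells (interaction 2.89 ± 0.33; adjusted p = 1.8e-04). Ereg, epiregulin, rose from 1.79, 1.48 and 1.63 to 24.99, 20.4 and 21.4 FPKM in NFIA cells and did not exceed 3.13 in ctrl cells (interaction 2.97 ± 0.15; adjusted p = 7.4e-07). Errfi1 rose from 59.1, 59.8 and 62.7 to 410.1, 408 and 404 FPKM, with ctrl libraries between 23.2 and 27.0 (interaction 2.91 ± 0.08; adjusted p = 9.4e-09). Hbegf, heparin-binding EGF, fell in ctrl cells (-0.63 ± 0.10) and rose in NFIA cells (0.89 ± 0.10; interaction adjusted p = 3.8e-05). The EGF receptor itself (Egfr) had no call (0.41 ± 0.19; adjusted p = 0.16) except with the header date or the replicate number as a term.

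Cytokines had 7 positive and 0 negative interactions in 17 tested genes, against 10.5% and 9.37% of all genes. The median was 0.39, and 0.24 to 0.25 without untreated NFIA replicate 1, forskolin ctrl replicate 1 or forskolin NFIA replicate 2. The 7 became 3 or 4 without untreated NFIA replicate 1 or 2 or untreated ctrl replicate 2. They did so too without forskolin NFIA replicate 2 or forskolin ctrl replicate 1. In replicates 2 and 3 alone the count was 4. Il11, of the interleukin 6 family, is 1 of the 7. It passed the filter only through the forskolin-treated NFIA libraries and is given without a test. Il11 read 0.2, 0.18 and 0.15 FPKM in untreated and 2.56, 5.5 and 4.47 in treated NFIA cells. In ctrl cells it read 0.25, 0.32 and 0.53 untreated and 0.59, 1.21 and 1.28 treated. Ptgs2 (COX-2), the inducible enzyme of prostaglandin synthesis, was high in ctrl cells whether treated or not, between 8.70 and 10.2 FPKM. In NFIA cells Ptgs2 rose from 0.88, 0.91 and 0.77 to 7.22, 6.38 and 6.81 FPKM, which left all NFIA libraries below all ctrl libraries (interaction 2.21 ± 0.09; adjusted p = 2.4e-07). Vegfa, the main angiogenic factor, rose in both, by 0.79 ± 0.11 in ctrl and 0.58 ± 0.11 in NFIA cells. Its interaction (-0.21 ± 0.16; adjusted p = 0.42) was called, as negative, under quantile normalization alone (-0.46).

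Several matricellular and TGF-beta target genes had opposite responses. Of 14 tested BMP and TGF-beta targets, 9 were positive and 1 negative, against 10.5% and 9.37% of all genes. The median was 1.07, and 0.57 without the filter on low values. In ctrl cells 0 rose and 4 fell, against 1.59% and 1.76% of all genes. Cyr61 (CCN1), a secreted matrix protein, fell from 80.8, 101 and 101 to 21.5, 28.4 and 30.1 FPKM in ctrl cells and rose from 13.02, 17.9 and 15.6 to 212, 273 and 282 in NFIA cells. Its interaction was 5.75 ± 0.24 (adjusted p = 2.0e-07), and treated and untreated libraries did not overlap in either kind of cell. Thbs1 (ENSMUSG00000040152.8, mm9 chromosome 2, 117937612 to 117952869), thrombospondin 1, fell from 235, 198 and 192 to 70.8, 61.8 and 66.5 FPKM in ctrl cells and rose from 41.1, 37.1 and 33.9 to 146, 146 and 153 in NFIA cells (interaction 3.59 ± 0.14; adjusted p = 1.8e-07). Ctgf (CCN2), the close relative of Cyr61, fell in both, from 54.05, 64.1 and 63.03 to 10.5, 12.8 and 14.3 FPKM in ctrl cells and from 3.09, 4.12 and 3.26 to 1.81, 1.73 and 2.3 in NFIA cells. Its interaction of 1.58 ± 0.19 (adjusted p = 2.2e-04) thus came from the larger fall in ctrl cells. The BMP target Id1 had no call (-0.26 ± 0.48; adjusted p = 0.78).

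Myc, a growth-promoting factor, also moved in opposite directions, from 13.1, 13.8 and 12.3 to 7.71, 8.99 and 8.23 FPKM in ctrl cells and from 15.8, 19.6 and 19.1 to 68.03, 71.6 and 80.9 in NFIA cells (interaction 2.56 ± 0.14; adjusted p = 1.3e-06). Of 35 cell cycle genes, 3 were positive and 2 negative, a share near the background of 10.5% and 9.37%. Cyclin D1 (Ccnd1) fell in ctrl cells (-0.75 ± 0.12) and had no call in NFIA cells (0.27 ± 0.12; interaction adjusted p = 0.0021). Foxs1, a forkhead factor, fell from 12.01, 16.4 and 16.98 to 3.92, 6.69 and 6.7 FPKM in ctrl cells and read 0.82, 1.09 and 1.79 and 1, 1.32 and 1.38 in NFIA cells (interaction 1.29 ± 0.30; adjusted p = 0.012).

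**Figure D5:**
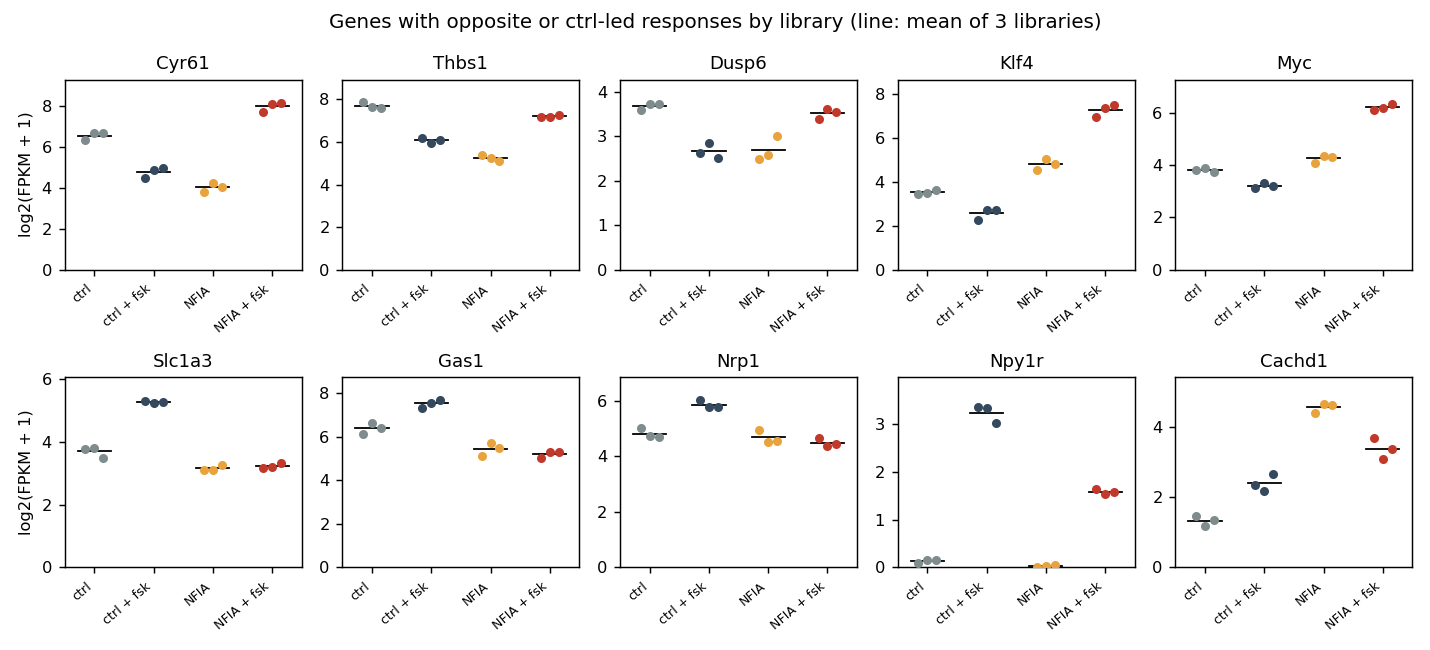
Levels of 10 genes with opposite responses or a response led by ctrl cells, as log2(FPKM + 1) in the 12 day 7 libraries; dots are libraries and lines the means of 3. Cyr61, Thbs1, Dusp6, Klf4 and Myc fell in ctrl cells and rose in NFIA cells, while Slc1a3, Gas1 and Nrp1 rose in ctrl cells alone.

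Some genes rose with forskolin mainly in ctrl cells. Slc1a3 (GLAST), a glutamate transporter, rose from 12.7, 13.2 and 10.3 to 38.6, 37.2 and 37.3 FPKM in ctrl cells and read 7.59, 7.52 and 8.68 and 7.98, 8.25 and 9.09 in NFIA cells (interaction -1.50 ± 0.13; adjusted p = 3.2e-05). Hey1, a Notch target and repressor, rose from 4.05, 4.6 and 5.48 to 10.7, 12.1 and 13.5 FPKM in ctrl cells and had no call in NFIA cells (interaction -1.44 ± 0.24; adjusted p = 0.0018). Gas1, a membrane protein of growth arrest, and Nrp1, a semaphorin and VEGF co-receptor, rose by 1.14 ± 0.18 and 1.04 ± 0.14 in ctrl cells and had no call in NFIA cells. Their interactions were -1.36 ± 0.26 and -1.23 ± 0.20 (adjusted p = 0.0041 and 0.0018). Npy1r, the Y1 receptor of neuropeptide Y, rose in both, from 0.07, 0.12 and 0.12 to 9.2, 8.99 and 7.04 FPKM in ctrl cells and from 0, 0.02 and 0.03 to 2.1, 1.91 and 1.99 in NFIA cells. Its interaction on the log2(FPKM + 1) scale was -1.52 ± 0.13 (adjusted p = 2.5e-05), and this value depends on the added 1. As a ratio of mean FPKM the rise was not smaller in NFIA cells, where untreated levels were 0.03 FPKM or less.

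The reverse of the opposite pattern, a fall in NFIA cells and a rise in ctrl cells, was led by Cachd1, a subunit-like protein of calcium channels. Cachd1 rose from 1.73, 1.26 and 1.52 to 4.08, 3.51 and 5.28 FPKM in ctrl cells and fell from 19.9, 23.96 and 23.4 to 11.8, 7.47 and 9.31 in NFIA cells (interaction -2.24 ± 0.23; adjusted p = 8.9e-05). Rassf2, a Ras-binding protein, went from 3.54, 3.31 and 3.57 to 5.05, 5.79 and 5.38 FPKM in ctrl cells and from 71.2, 73.2 and 66.5 to 41.98, 38.4 and 36.8 in NFIA cells (interaction -1.35 ± 0.10; adjusted p = 1.3e-05). Ppp1r3c, which directs a phosphatase to glycogen, rose by 0.91 ± 0.06 in ctrl cells and fell by 0.41 in NFIA cells (interaction -1.33 ± 0.08; adjusted p = 3.5e-06). The potassium channel Kcnj2 rose from 13.8, 11.7 and 12.1 to 25.01, 21.8 and 19.7 FPKM in ctrl cells and fell from 2.97, 2.51 and 2.93 to 2.2, 1.7 and 1.49 in NFIA cells (interaction -1.22 ± 0.17; adjusted p = 5.5e-04). For these 4 genes treated and untreated libraries did not overlap in either kind of cell, which the naming rule asked of 1 kind and which held for 42.7% of all genes in NFIA cells and 18.7% in ctrl cells.

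Outside the lists, Fgl2, a fibrinogen-like secreted protein, was tested only through the forskolin-treated NFIA libraries and is given without a test. Fgl2 read 0.06, 0.04 and 0.05 FPKM in untreated and 39.2, 40.7 and 41.9 in treated NFIA cells, and 0.18, 0.22 and 0.23 and 0.45, 0.53 and 0.36 in ctrl cells. Alpl, tissue-nonspecific alkaline phosphatase, rose from 3.66, 8.44 and 10.8 to 196, 144 and 134 FPKM in NFIA cells and did not exceed 0.11 in ctrl cells (interaction 4.19 ± 0.39; adjusted p = 4.6e-05). Slpi, a secreted protease inhibitor, rose from 7.28, 12.2 and 11.6 to 116, 169 and 208 FPKM (interaction 4.03 ± 0.41; adjusted p = 8.5e-05). Zfp36 (tristetraprolin), which speeds the decay of AU-rich mRNAs, rose from 15.2, 20.2 and 20.6 to 159, 221 and 231 FPKM, with ctrl libraries between 4.91 and 7.30 (interaction 3.49 ± 0.25; adjusted p = 6.9e-06). Several of the largest values belong to entries for the small RNAs U1 and U3, whose reads may be divided among near-identical copies. They are not described further.

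Among the largest negative interactions, Bmf, a pro-apoptotic BCL2 family member, fell from 5, 7.12 and 8.23 to 0.53, 0.51 and 1.5 FPKM in NFIA cells and read 4.4, 5.43 and 5.4 and 5.37, 7.68 and 7.19 in ctrl cells (interaction -2.44 ± 0.31; adjusted p = 3.8e-04). Apln, the secreted peptide apelin, fell from 12.7, 14.3 and 13.8 to 2.89, 4.18 and 2.68 FPKM, with ctrl libraries between 7.78 and 9.63 (interaction -1.72 ± 0.17; adjusted p = 7.8e-05). Mxd4, a MAX partner that opposes MYC, fell from 61.6, 82.5 and 67.2 to 19.4, 18.4 and 19.3 FPKM (interaction -1.65 ± 0.18; adjusted p = 1.2e-04). Hdhd3, a hydrolase domain protein, fell from 29.6, 39.6 and 38.4 to 7.97, 10.8 and 9.28 FPKM (interaction -1.92 ± 0.28; adjusted p = 9.1e-04). Of 12 tested interferon response genes, 0 were positive and 4 negative, against 10.5% and 9.37% of all genes. The median was -0.11, and -0.33 to 0 over the alternatives. Irf1 led the 4 and fell from 16.1, 19.1 and 20 to 7.56, 5.87 and 7.14 FPKM in NFIA cells. In ctrl cells it read 28.6, 28.4 and 31.1 and 24.7, 30.7 and 31.99 (interaction -1.29 ± 0.17; adjusted p = 4.8e-04).

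Few contractile genes were called. Of 40 tested contractile genes, 1 was positive and 0 negative (median 0.03, and -0.06 under quantile normalization), below the background of 10.5%, and of the 10 myoblast and myotube markers none was called in the interaction by limma, with 0 at an unadjusted p under 0.05. Skeletal actin (Acta1) read 2424, 2707 and 2603 FPKM in untreated and 1891, 2413 and 2641 in treated ctrl cells, and 443, 604 and 579 and 507, 616 and 711 in NFIA cells (interaction 0.34 ± 0.25; adjusted p = 0.42; called with the header date as a term). Myogenin (Myog), the factor of terminal muscle differentiation, had no call (-0.10 ± 0.37; adjusted p = 0.9), nor had Myod1 (0.21 ± 0.33; adjusted p = 0.74). Of 15 myogenic regulators 2 were positive and 2 negative (26.7% called, against 19.9% of all genes). The positive ones included Mef2d, a partner of myogenic factors, which rose from 18.5, 22.6 and 19.99 to 33.8, 48.2 and 42.8 FPKM in NFIA cells (interaction 1.03 ± 0.18; adjusted p = 0.0026). Of 34 matrix genes, 7 were positive and 1 negative (23.5% called, near the 19.9% of all genes), with 2 positive under quantile normalization. The fibril-associated collagen Col12a1 rose from 35.7, 31.6 and 27.99 to 73.1, 78.7 and 78.2 FPKM in NFIA cells and the matrix protease Adamts1 from 26.7, 27.4 and 23.5 to 113, 113 and 117 (Adamts1 rose in ctrl cells too; interactions 1.42 ± 0.14 and 1.39 ± 0.11; adjusted p = 6.9e-05 and 1.4e-05). The basement membrane chain Lama4 fell from 45.9, 39.8 and 36.4 to 17.8, 13.7 and 16.2 FPKM (interaction -1.42 ± 0.17; adjusted p = 2.3e-04).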

How the data were processed

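Poly(A) RNA was sequenced from stranded libraries of the 12 day 7 C2C12 samples, per the labels' protocols. The authors deposited 1 FPKM value per gene and library, for which the submitters' processing notes name TopHat, Cufflinks and mm9. Their versions, the annotation and the library totals are not stated in any source read. Precision therefore rests on the spread of 3 libraries a group. FPKM of entries with the same gene symbol and overlapping positions were summed. Then log2(FPKM + 1) was fitted with limma 3.58.1 (R 4.3.3, variance trend, 4 group means, no replicate term). The fit covered 14034 genes with at least 1 FPKM in at least 3 libraries. Benjamini-Hochberg adjustment was made over all of them, with calls under 0.05. The code was tested on simulated data with 200 changed genes. Alternatives were 10 other settings and leaving out 1 library at a time.

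The members and the 43 gene lists were chosen with earlier results of these data known. Some lists share genes. Genes were named by rule: a fixed set, up to 4 called members per list by size of the interaction and up to 2 uncalled ones by level, the 10 largest in each direction, and up to 5 per response pattern; called genes needed libraries that did not overlap in at least 1 kind of cell. Of 176 called genes the rule allowed, 139 kept the call under every alternative in which they were tested. When 1 library was left out 24 lost it, and 1 changed sign under another setting. Genes that lost it were left out of the text, except Nfia. Ucp1, Irf4 and Fgl2 were tested in 18 of the 22 alternatives, and not where a forskolin-treated NFIA library was left out. Some other genes of the lists are not reported here. Acadm, Alpl, Arntl, Cidea, Fasn, Hbegf, Hspa5, Irf4, Jun, Junb, Myod1, Pank1, Per2, Per3, Slc25a25, Slpi and Zfp36 fall outside the rule and were chosen after their values were seen. Promoters came from RefSeq (GRCm38.p6). Tissue and day 0 tables entered no result, except day 0 libraries in 1 alternative fit.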

Additional observations from a re-analysis of the deposited data

Results flagged for a closer look

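The forskolin response differed between NFIA and ctrl cells in 2793 of 14034 genes by the test of the difference itself. Among them, 71 rose in NFIA cells and fell in ctrl cells, both called, and 16 fell in NFIA cells and rose in ctrl cells. These were 37 and 5 without untreated ctrl replicate 2, and 218 and 108 with the header date as a term. Cyr61, Atf3 and Klf4 belong to the 71, and Cachd1 and Rassf2 to the 16.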

How the results depend on the processing

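With the replicate number as a term (replicate block), 5182 genes were called in the interaction, 7047 in the NFIA response and 1189 in the ctrl response, and with the header date as a term it was 5451, 7212 and 1337. The numbers are not known to pair the libraries: same-numbered libraries of different groups deviated together with correlations from 0.245 to 0.443 for number 1, 0.049 to 0.252 for number 2 and 0.088 to 0.315 for number 3, against -0.343 to 0.245 between numbers, and 10 of 12 libraries correlated best with their own number. With 1 library left out, the counts ran from 2122 to 2743, from 3651 to 4851 and, in ctrl cells, from 256 to 477. Under the other 8 settings the counts stayed within 1.5 times of the reported ones (2475 to 4017 in the interaction and 4246 to 6181 in the NFIA response, with at most 570 in the ctrl response).

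Of 176 genes with a called interaction that the naming rule allowed, 139 kept it under every setting that tested them. When 1 library was left out, 24 lost it. The genes named were chosen among those that kept it, apart from Nfia. Of 17 genes named without a call, 8 were called under at least 1 setting; with the replicate block these were Cebpa, Cd68, Egfr, Hsp90ab1 and Jund. The 71 and 16 genes with opposite calls became 198 and 95 with the replicate block and 218 and 108 with the header date. Depth is unknown, so no value has a counting error. Forskolin was given at 1 dose for 1 duration, and untreated cells are not stated to have had a vehicle.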
